A study of Mus musculus with 18 samples.

Results

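The metabolic nuclear receptors of the liver were followed as 9 genes chosen by symbol, namely Ppara, Pparg, Ppard, Nr1i2, Nr1i3, Nr1h3, Hnf4a, Rxra and Esr1. They were 9 of the 25266 gene symbols listed for each mouse, and all 9 were among the 11090 genes with a mean of at least 0.5 RPKM (reads per kilobase of gene, scaled to library size) that were tested. Liver RNA of 18 male C57BL/6 mice was sequenced. FF mice carried Ppp6r3 fl/fl alleles, and LKO mice carried the same floxed alleles together with a Cre transgene under the albumin promoter, which acts in hepatocytes and leaves Ppp6r3 in the other cells of the liver. Every mouse, controls included, was therefore floxed at Ppp6r3, the gene of SAPS3, a regulatory subunit of protein phosphatase 6. Mice were fed a control diet (CD, 10 kcal% fat) or a high-fat diet (HFD, with 32.5 kcal% from fat), starting at 8 weeks of age and lasting 16 weeks, which gave 4 mice of each genotype on CD and 5 of each genotype on HFD. The series asked how gene expression in the liver differed without SAPS3 under HFD.

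Nuclear receptors are transcription factors whose activity is set by small lipophilic ligands, and most of the 9 genes here encode proteins that bind DNA as heterodimers with the retinoid X receptor encoded by Rxra. PPARα (Ppara) is activated by fatty acids and drives fatty acid oxidation in the fasted liver, PPARγ (Pparg) is the adipocyte receptor that becomes abundant in fatty livers, and PPARδ (Ppard) is widely expressed. The xenobiotic receptors PXR (Nr1i2) and CAR (Nr1i3) induce drug-metabolising enzymes, the liver X receptor α (Nr1h3) senses oxysterols and drives lipogenesis and cholesterol disposal, HNF4α (Hnf4a) maintains hepatocyte identity as a homodimer, and estrogen receptor α (Esr1) binds estradiol. The amount of a receptor's mRNA is not a measure of its activity, so genes known as targets of the receptors are given after the receptors themselves.

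The promoters printed are those of Pparg, Nr1i3 and Nr1i2, the receptors whose HFD response differed most between genotypes, so that their sequences can be set beside the values. RefSeq starts of the mouse genome build GRCm38.p6 gave 15 promoter windows for the 9 genes, each holding 250 bases before and 50 bases after the start. The 250 bases upstream of the start are shown 5′ to 3′ on the gene's own strand, with capitals marking CCAAT or its reverse complement ATTGG.
Pparg, downstream start, chr6:115421816-115422065, plus strand: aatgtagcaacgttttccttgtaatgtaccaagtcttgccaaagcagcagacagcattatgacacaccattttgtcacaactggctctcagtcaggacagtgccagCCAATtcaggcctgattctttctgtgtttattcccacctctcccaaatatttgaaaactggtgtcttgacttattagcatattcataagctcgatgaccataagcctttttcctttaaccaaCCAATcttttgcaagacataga
Nr1i3, chr1:171213720-171213969, plus strand: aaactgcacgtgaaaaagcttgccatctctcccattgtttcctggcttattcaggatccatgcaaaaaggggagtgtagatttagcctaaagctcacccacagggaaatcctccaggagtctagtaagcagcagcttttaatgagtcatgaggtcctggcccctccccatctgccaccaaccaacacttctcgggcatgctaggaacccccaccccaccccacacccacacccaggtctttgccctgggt
Nr1i2, chr16:38294825-38295074, minus strand: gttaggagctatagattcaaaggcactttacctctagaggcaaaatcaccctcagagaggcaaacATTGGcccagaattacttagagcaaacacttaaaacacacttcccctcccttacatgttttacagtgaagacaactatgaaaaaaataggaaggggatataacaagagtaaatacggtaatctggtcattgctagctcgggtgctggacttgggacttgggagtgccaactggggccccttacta
CCAAT on either strand was present in 7 of the 15 windows and in 37.4% of the 32851 windows of all genes. The nuclear receptor hexamer AGGTCA, searched on both strands, was present in 3 of the 15 windows, 1 of Rxra and 2 of Pparg, and in 16.3% of all windows. The windows of the 3 printed promoters held few CpG, with 2 in the window of the downstream Pparg start, 3 in that of Nr1i3 and 2 in that of Nr1i2, against a median of 7 over all windows. The other promoter windows of Pparg held 44 and 13 CpG, that of Ppara held 30 and that of Ppard held 27. Few CpG were not particular to the printed promoters, since some windows of receptors called in no comparison held 1 (Rxra), 4 and 4 (Hnf4a) and 6 (Esr1). Other windows of such receptors held 55 (Rxra), 12 (Esr1) and 8 and 10 (Nr1h3). RPKM values were given per gene, so transcripts from the different Pparg starts cannot be told apart. A match of letters is a description of the window and not a measured binding site.

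The libraries held between 23408032 and 36953566 reads per mouse, as recovered from the steps of the RPKM values, and both extremes were FF mice. Ppp6r3 ranged from 7.55 to 11 RPKM in the 9 FF mice and from 3.88 to 4.87 RPKM in the 9 LKO mice, with no overlap between genotypes. The summed RPKM of 9 hepatocyte markers ranged from 38741 to 56133, and the liver label was met in every mouse. Single hepatocyte markers varied with diet and genotype. For HFD in FF mice 4 of the 9 were called lower and 0 higher, where 6.60% of all genes were called. On HFD 2 were called higher and 0 lower in LKO than in FF mice, where 2.07% were called. Cps1 was at 435 to 634 RPKM in FF CD, 148 to 285 in FF HFD and 256 to 337 in LKO HFD mice. Marker sums of other cell types varied with diet, while those of FF HFD and LKO HFD mice overlapped for each type given here. Between genotypes 0 of the 11 tested Kupffer cell and macrophage genes and 0 of the 8 endothelial genes were called on either diet. In LKO CD mice the endothelial, stellate and Kupffer sums were 13.2 to 37.2, 70.4 to 114 and 79.0 to 115 RPKM. In FF CD, FF HFD and LKO HFD mice, those of 8 sinusoidal endothelial genes were 16.1 to 35.6, 42.1 to 71.0 and 33.7 to 46.3 RPKM, those of 10 stellate cell genes were 66.8 to 95.6, 87.7 to 132 and 60.1 to 119 RPKM, and those of 13 Kupffer cell and macrophage genes were 84.4 to 120, 99.7 to 211 and 108 to 186 RPKM. On HFD 3 of the 10 stellate cell genes were called lower and 0 higher in LKO than in FF mice, where 2.07% of all genes were called. They were the collagen genes Col1a1 (-1.15), Col1a2 (-0.96) and Col3a1 (-1.24), the other genes of the list were not called, and the list median was -0.27. The part of these cells in the results below was not tested, and in bulk liver fewer cells of a type and less RNA per cell cannot be told apart.

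The 9 receptors lay at high to low levels among the genes tested. On the RPKM scale, which corrects for gene length, the mean level over the 18 mice was 99.4 for Hnf4a, 59.8 for Rxra, 57.5 for Nr1i3, 42.7 for Ppara, 25.7 for Nr1i2, 24.9 for Nr1h3, 5.76 for Pparg, 1.76 for Esr1 and 1.43 for Ppard. Hnf4a ranked 513 and Ppard 8907 by mean RPKM among all listed genes. The neighbours Rxra and Nr1i3 exchanged places between groups, since Rxra was the higher in FF CD mice (57.5 ± 9.22 against 36.5 ± 7.45, mean ± SD, n = 4) and Nr1i3 was the higher in FF HFD mice (72.7 ± 11.2 against 58.1 ± 10.8, n = 5). Nr1i2 and Nr1h3 also overlapped, at 21.8 ± 2.75 and 25.1 ± 3.24 RPKM in FF CD mice and 30.4 ± 5.27 and 24.8 ± 3.97 RPKM in FF HFD mice. The level of Pparg varied most, with 6.42 times as much RNA in the highest mouse as in the lowest, followed by Nr1i3 at 3.26 times and Esr1 at 2.44 times. Nr1h3 varied least, at 1.57 times. Low levels rested on few reads, with 82 to 156 reads per mouse for Ppard, 88 to 646 for Pparg and 222 to 621 for Esr1, whereas Nr1h3 had at least 1002 and Nr1i2 at least 1128 reads in every mouse.

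**Figure D1:**
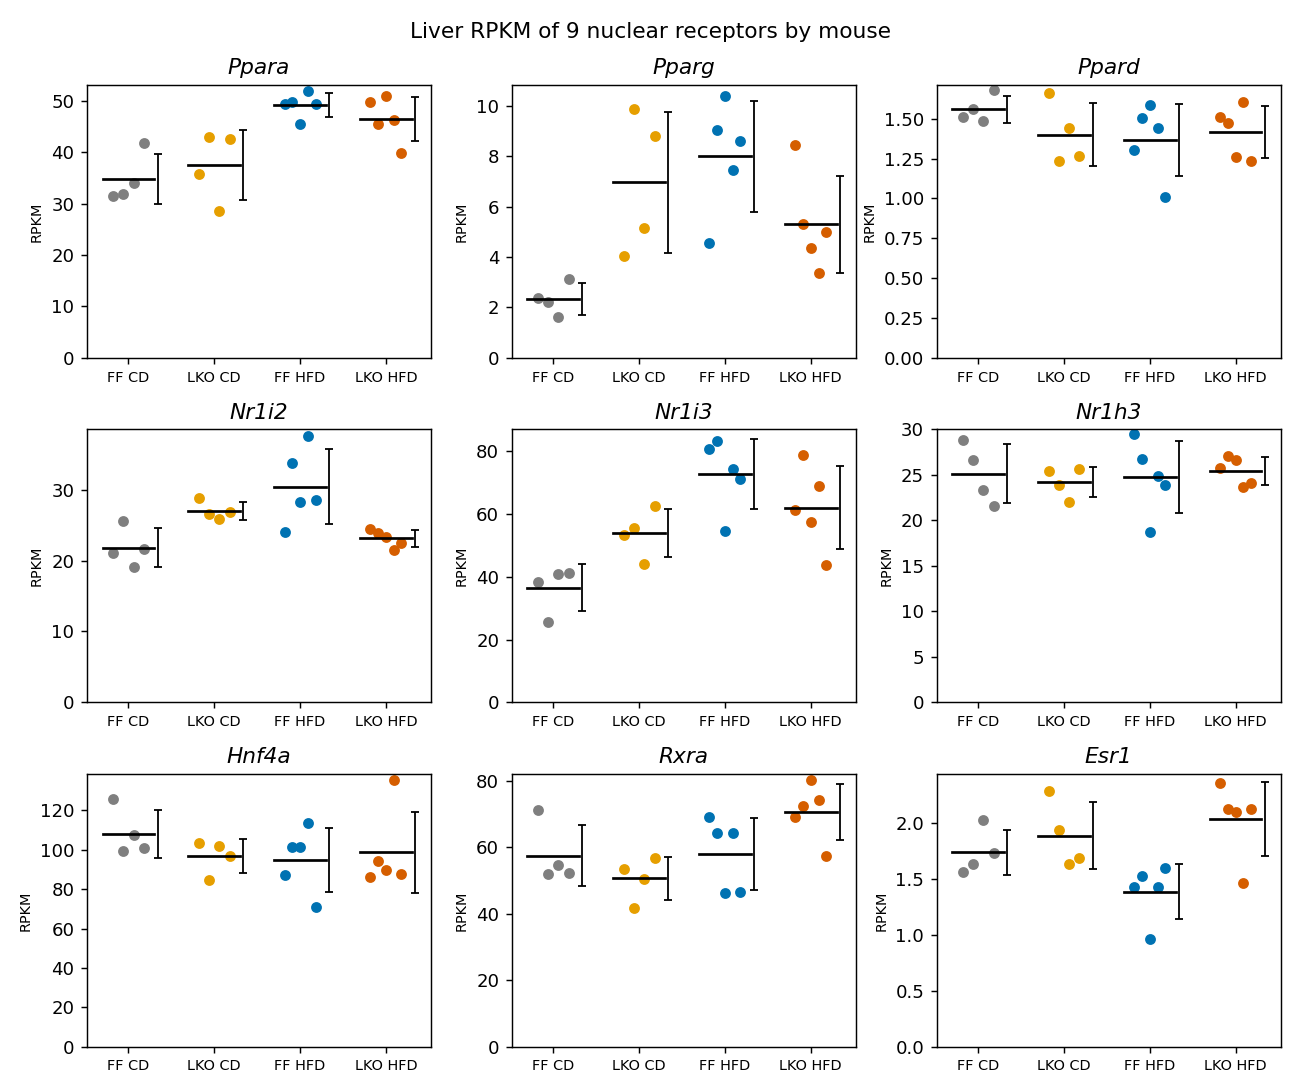
Level of each receptor gene in RPKM on a linear axis from 0, with 1 point per mouse in the 4 groups (FF CD and LKO CD, n = 4, FF HFD and LKO HFD, n = 5), the group mean as a black line and its SD as the bar beside the points. Pparg was at most 3.14 RPKM in the FF CD mice and between 4.54 and 10.4 RPKM in the FF HFD mice, while Nr1h3 lay between 18.8 and 29.5 RPKM in every group.

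A gene was called when it differed by more than 1.5-fold with a Benjamini-Hochberg adjusted p under 0.05 over all 11090 genes in limma, and fold changes are on the log2(RPKM + 1) scale, which understates the change of low genes. HFD in FF mice raised 2 of the 9 receptors, Pparg and Nr1i3, where 6.60% of all genes were called (567 higher and 165 lower). HFD in LKO mice gave a call for 0 of the 9 in limma, where 1.27% of all genes were called and 2475 genes had an unadjusted p under 0.05, and 2 receptors, Rxra and Ppara, were among the latter. Between LKO and FF mice, limma called 0 of the 9 on CD, where 0.225% of genes were called and 3 of the 9 had an unadjusted p under 0.05, and 0 of the 9 on HFD, where 2.07% were called and 4 of the 9 had an unadjusted p under 0.05. The number of receptors called in each comparison was the same when reads were estimated and tested with limma voom. The test of whether the HFD response differed between genotypes called 2 receptors, Pparg and Nr1i2, where 2.44% of all genes were called. By adjusted p alone, without the limit on the fold change, 4 of 9 receptors passed for HFD in FF mice (20.6% of all genes), 0 for HFD in LKO mice (4.05%), 0 for LKO on CD (0.234%), 2 for LKO on HFD (4.20%) and 2 for the difference in response (2.97%). The 4 pairwise comparisons share groups of mice and are not independent of each other. The same pairs of groups were also compared by exact two-sided permutation tests of mean log2(RPKM + 1) for each receptor. Over these 36 tests the smallest Benjamini-Hochberg adjusted p was 0.0935, and the smallest p the exact test can give was 0.0286 for 4 against 4 mice and 0.00794 where 5 mice were in a group.

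**Figure D2:**
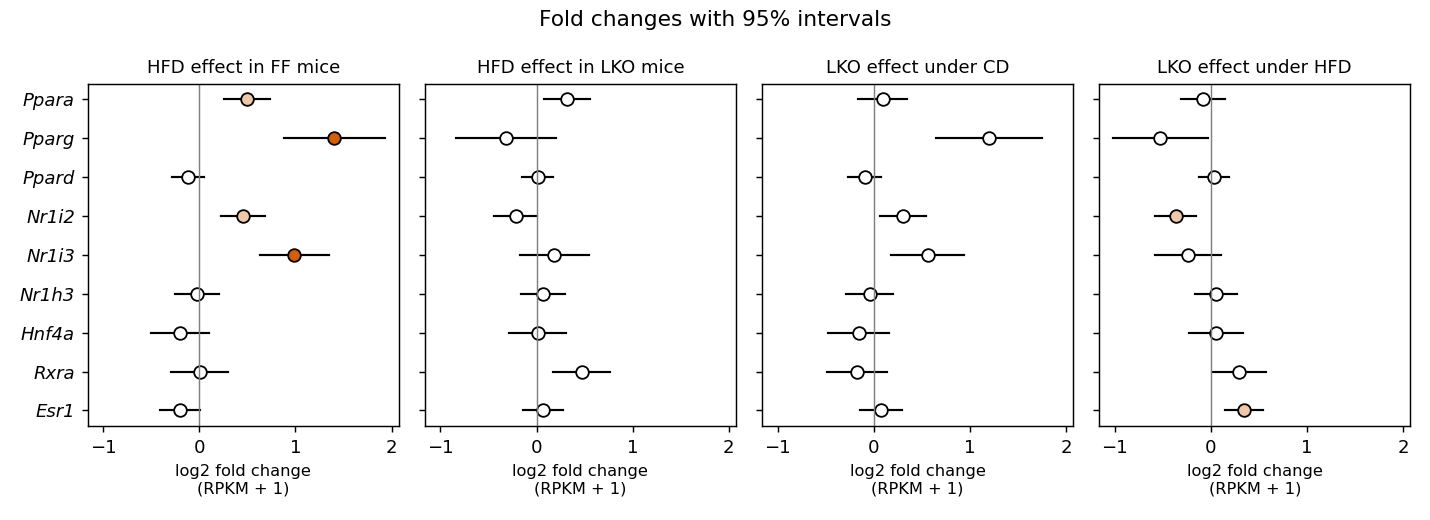
Log2 fold change of RPKM + 1 for each receptor gene in the 4 pairwise comparisons, as a dot with its 95% interval from limma, with dark orange for genes called at 1.5-fold and adjusted p under 0.05, light orange for adjusted p under 0.05 alone and white for neither. Dark dots are seen only for Pparg (1.41) and Nr1i3 (0.99) under HFD in FF mice.

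Pparg (ENSMUSG00000000440.12, chr6:115360951-115490399, plus strand of GRCm38) encodes the receptor that drives lipid storage in adipocytes and, when abundant, in hepatocytes. Its level was 2.39, 2.23, 1.62 and 3.14 RPKM in the 4 FF CD mice and 4.54, 9.02, 10.4, 7.46 and 8.58 RPKM in the 5 FF HFD mice. Every FF HFD mouse was above every FF CD mouse, and the group means of 8.0 ± 2.20 and 2.34 ± 0.626 RPKM stood in a ratio of 3.41. Pparg rose by 1.41 on the log2 scale (SE 0.25, 95% interval 0.89 to 1.93, limma adjusted p = 0.000833, exact permutation p = 0.0159). In LKO mice it was 4.04, 9.87, 5.14 and 8.79 RPKM on CD and 8.46, 5.30, 4.36, 3.35 and 5.0 RPKM on HFD. These 2 groups overlapped, with means of 6.96 ± 2.81 and 5.29 ± 1.92 RPKM and a log2 difference of -0.32 (95% interval -0.84 to 0.20, limma adjusted p = 0.478). The response to HFD was lower in LKO than in FF mice by a log2 difference of -1.72 (SE 0.35, 95% interval -2.46 to -0.99, adjusted p = 0.0108).

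The LKO CD mice had higher Pparg values than the FF CD mice without overlap, although the difference was not called. The ratio of the means was 2.97 and the log2 difference 1.2 (SE 0.26, 95% interval 0.65 to 1.75, limma adjusted p = 0.0748, exact permutation p = 0.0286, the smallest possible). This difference was called without LKO CD mouse 1 (1.39, adjusted p = 0.0298), without FF HFD mouse 1 (adjusted p = 0.0407), without LKO HFD mouse 1 (adjusted p = 0.0468) and with a pseudocount of 0.1 RPKM (adjusted p = 0.0490). On HFD the LKO mice overlapped the FF mice, with a log2 difference of -0.52 (95% interval -1.02 to -0.03, limma adjusted p = 0.227). Adipose tissue attached to a liver would bring adipocyte RNA with Pparg in it, and the summed level of 5 adipocyte markers reached at most 0.270 RPKM in FF CD, 0.539 in LKO CD, 2.24 in FF HFD and 2.45 in LKO HFD mice. Adipoq, the adipocyte hormone adiponectin, was at 0 in all CD mice and at most 0.760 RPKM in FF HFD mice. Lep and Plin1 were also at 0 in all CD mice, whereas Cfd reached 0.270 RPKM in FF CD and 0.539 RPKM in LKO CD mice and Retn was at 0 in FF CD mice and reached 0.0286 RPKM in LKO CD mice. The part of adipocyte RNA in the result was not tested.

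Nr1i3 (ENSMUSG00000005677.14, chr1:171213970-171220701, plus strand) encodes CAR, which on activation moves to the nucleus and induces Cyp2b enzymes. Its values carry a limit that holds for every comparison, because 3304 of its 4414 exon bases (74.9%) are shared with exons of Tomm40l, a gene of the mitochondrial outer membrane on the opposite strand, and counting is not stated to have used strand. Reads of these 2 genes cannot be told apart. Nr1i3 was at 38.2, 25.5, 40.9 and 41.3 RPKM in FF CD mice and at 80.6, 83.1, 54.6, 74.3 and 71.0 RPKM in FF HFD mice. No FF HFD mouse was as low as any FF CD mouse, and the mean was 1.99 times as high. Nr1i3 rose by 0.99 on the log2 scale (SE 0.17, 95% interval 0.63 to 1.35, limma adjusted p = 0.000746, exact permutation p = 0.00794). Tomm40l, at 16.7 to 28.0 RPKM in FF CD and 26.9 to 42.8 RPKM in FF HFD mice, rose by 0.61 (SE 0.18, adjusted p = 0.0242), and its ratio to Nr1i3 lay between 0.430 and 0.684 in the 18 mice with a median of 0.522.

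In LKO mice Nr1i3 was at 53.3, 55.6, 44.0 and 62.7 RPKM on CD and at 61.4, 78.8, 57.3, 68.9 and 43.8 RPKM on HFD. The 2 diets overlapped, since LKO HFD mouse 5 was below every LKO CD mouse, and the log2 difference was 0.18 (95% interval -0.18 to 0.54, limma adjusted p = 0.559). All LKO CD mice were above all FF CD mice, with a ratio of 1.48 and a log2 difference of 0.56 (95% interval 0.18 to 0.94) that did not pass the test (limma adjusted p = 0.312, exact permutation p = 0.0286). The corresponding value for Tomm40l was 0.12 (adjusted p = 0.955). For HFD in LKO mice Tomm40l had a log2 difference of 0.45 (limma adjusted p = 0.160). The HFD response of Tomm40l in LKO mice minus that in FF mice was -0.17 (limma adjusted p = 0.793). The HFD response of Nr1i3 in LKO mice minus that in FF mice was -0.80 (SE 0.24, 95% interval -1.31 to -0.29, limma adjusted p = 0.0889), which was called without FF HFD mouse 3 (-0.90, adjusted p = 0.0485) and when RPKM were rescaled to a common sum (-0.87, adjusted p = 0.0356).

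Nr1i2 (ENSMUSG00000022809.4, chr16:38248323-38294824, minus strand) encodes PXR, which senses drugs and bile acids and induces Cyp3a enzymes. It was at 21.1, 25.6, 19.1 and 21.6 RPKM in FF CD mice and at 24.0, 33.7, 28.3, 37.6 and 28.6 RPKM in FF HFD mice. FF HFD mouse 1 lay below FF CD mouse 2 and the other FF HFD mice lay above all FF CD mice. The mean was 1.39 times as high on HFD, a log2 difference of 0.45 (SE 0.11, 95% interval 0.23 to 0.68) that passed the adjusted p (limma, 0.00655) and not the limit of 1.5-fold. In LKO mice the order was the opposite. Nr1i2 was at 28.8, 26.6, 25.9 and 26.8 RPKM on CD and at 24.5, 23.9, 23.3, 21.5 and 22.4 RPKM on HFD, with every HFD mouse below every CD mouse, yet the log2 difference of -0.22 (95% interval -0.44 to 0.01) did not pass (limma adjusted p = 0.242, exact permutation p = 0.00794).

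The HFD response of Nr1i2 differed between genotypes by -0.67 on the log2 scale (SE 0.15, 95% interval -0.99 to -0.35, limma adjusted p = 0.0228). That call was lost without FF CD mouse 3 (-0.61, adjusted p = 0.0663) or without LKO CD mouse 4 (-0.67, adjusted p = 0.0509). On CD the LKO mice had higher Nr1i2 values than the FF mice without overlap, at a ratio of 1.24 (log2 difference 0.30, limma adjusted p = 0.457, exact permutation p = 0.0286). On HFD the LKO values were lower, with a ratio of 0.760 and a log2 difference of -0.37 (SE 0.10, 95% interval -0.58 to -0.15, limma adjusted p = 0.0481). The only overlap on HFD was that FF mouse 1, at 24.0 RPKM, lay below LKO mouse 1, at 24.5 RPKM. The adjusted p of this last difference stayed under 0.05 in 4 of the 18 fits that each left out 1 mouse, namely those without FF CD mouse 2 or 3, FF HFD mouse 1 or LKO HFD mouse 1.

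Ppara (ENSMUSG00000022383.13, chr15:85734983-85802819, plus strand) encodes the fatty acid receptor of the hepatocyte. It was at 31.5, 31.8, 34 and 41.9 RPKM in FF CD mice and at 49.5, 49.8, 45.6, 51.9 and 49.3 RPKM in FF HFD mice. The HFD mice were all above the CD mice, and they varied little (49.2 ± 2.30 RPKM, n = 5). The mean was 1.41 times as high and the log2 difference was 0.50 (SE 0.11, 95% interval 0.25 to 0.74), which passed the adjusted p (limma, 0.00539) and not the fold limit. It passed the limit as well without FF CD mouse 4, the highest of its group (0.59, adjusted p = 0.00244). In LKO mice Ppara was at 35.8, 43.0, 28.7 and 42.6 RPKM on CD and at 49.7, 45.4, 51.0, 46.3 and 39.9 RPKM on HFD. These groups overlapped through LKO HFD mouse 5, and the log2 difference was 0.31 (95% interval 0.07 to 0.56, limma adjusted p = 0.121). The difference of the responses was -0.18 (95% interval -0.52 to 0.16, adjusted p = 0.619), an interval that allows equal responses and also one in LKO mice lower by 0.52. Between genotypes the log2 difference of Ppara was 0.10 on CD (adjusted p = 0.937) and -0.09 on HFD (adjusted p = 0.705).

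Rxra (ENSMUSG00000015846.14, chr2:27676440-27762957, plus strand) encodes the partner shared by the PPARs, PXR, CAR and the liver X receptors. It was at 71.2, 51.9, 54.7 and 52.2 RPKM in FF CD mice, at 69, 64.2, 46.2, 64.3 and 46.5 RPKM in FF HFD mice, at 53.4, 41.8, 50.6 and 56.9 RPKM in LKO CD mice and at 69, 72.4, 80.2, 74.1 and 57.4 RPKM in LKO HFD mice. The FF groups overlapped fully (log2 difference 0.01, 95% interval -0.29 to 0.30, limma adjusted p = 0.983). Among LKO mice every HFD value was above every CD value, with LKO HFD mouse 5 (57.4 RPKM) just above LKO CD mouse 4 (56.9 RPKM). The means of 70.6 ± 8.4 and 50.7 ± 6.45 RPKM gave a ratio of 1.39 and a log2 difference of 0.47 (SE 0.14, 95% interval 0.18 to 0.77, limma adjusted p = 0.0653, exact permutation p = 0.0159). That difference had an adjusted p of 0.0299 after rescaling to a common sum and of 0.0415 after quantile normalization, still under 1.5-fold. The responses differed by 0.47 between genotypes (95% interval 0.05 to 0.89, adjusted p = 0.248), and on HFD the LKO mice were higher than the FF mice by 0.29 (95% interval 0.01 to 0.57, adjusted p = 0.240).

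Esr1 (ENSMUSG00000019768.16, chr10:4611593-5005614, plus strand) encodes the estrogen receptor of the hepatocyte and was the receptor with the highest LKO to FF ratio on HFD. Its level was low, at 1.43, 1.52, 0.965, 1.43 and 1.60 RPKM in FF HFD mice and at 2.36, 2.13, 2.10, 1.47 and 2.13 RPKM in LKO HFD mice. LKO mouse 4 lay within the FF range and the other LKO mice lay above it. The ratio of the means was 1.47 and the log2 difference was 0.35 (SE 0.09, 95% interval 0.15 to 0.54, limma adjusted p = 0.0451, exact permutation p = 0.0238), which passed the adjusted p and not the fold limit on this scale. Its adjusted p stayed under 0.05 in 4 of the 18 such fits, namely those without FF CD mouse 3, LKO CD mouse 1 or 3 or LKO HFD mouse 4, and it was 0.106 when only the groups compared were fitted. On CD the values were 1.56, 1.63, 2.03 and 1.73 RPKM in FF and 2.29, 1.94, 1.64 and 1.69 RPKM in LKO mice, which overlapped (log2 difference 0.07, adjusted p = 0.942). HFD gave log2 differences of -0.20 in FF mice (95% interval -0.41 to 0.01, adjusted p = 0.163) and 0.07 in LKO mice (adjusted p = 0.726).

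Nr1h3, Hnf4a and Ppard were not called in any comparison, and their groups overlapped throughout. Nr1h3 (ENSMUSG00000002108.10, chr2:91184061-91202834, minus strand), the oxysterol receptor, had the closest group means, at 25.1 ± 3.24, 24.2 ± 1.67, 24.8 ± 3.97 and 25.5 ± 1.52 RPKM in FF CD, LKO CD, FF HFD and LKO HFD mice. Its HFD difference in FF mice was -0.03 on the log2 scale (95% interval -0.26 to 0.21, limma adjusted p = 0.894), which leaves out a change of 1.5-fold in either direction, and its sign turned when RPKM were rescaled to a common sum. Hnf4a (ENSMUSG00000017950.16, chr2:163506808-163572910, plus strand), the hepatocyte identity factor, was at 108 ± 12.2, 96.8 ± 8.69, 94.9 ± 16.4 and 98.8 ± 20.7 RPKM in the same order of groups, with an HFD difference in FF mice of -0.20 (95% interval -0.50 to 0.10, adjusted p = 0.349). LKO HFD mouse 4 held the highest Hnf4a value, 135 RPKM, against at most 94.3 RPKM in the other mice of its group. Ppard (ENSMUSG00000002250.16, chr17:28232700-28301474, plus strand), the broadly expressed PPAR, was at 1.56 ± 0.0854, 1.40 ± 0.195, 1.37 ± 0.226 and 1.42 ± 0.164 RPKM, with an HFD difference in FF mice of -0.12 (95% interval -0.28 to 0.05, adjusted p = 0.321).

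The PPARα target list held 38 genes of fatty acid oxidation, ω-oxidation and peroxisomes, all tested. HFD in FF mice raised 27 of the 38 and lowered 0 in limma, where 6.60% of all genes were called. The median log2 change was 0.80 against 0.07 over all genes tested. Among the 27, Cpt1b, at a mean of 0.298 RPKM in FF CD and 1.07 RPKM in FF HFD mice, passed the filter on low values through the FF HFD mice. The place of Cpt1b in the count is no support for it. In LKO mice HFD raised 1 of 38, Txnip (0.69), where 1.27% of all genes were called. This 1 of 38 is not read as a result about the list. The list median was 0.18, and the count was 0 in 14 of the fits that left out 1 mouse. The HFD response differed between genotypes for 13 genes, where 2.44% of all genes were called. All 13 had the lower response in LKO mice (median -0.52 against -0.01 over all genes). Cyp4a10, a fatty acid ω-hydroxylase, was at 27.1, 21.4, 5.55 and 33.3 RPKM in FF CD mice and at 194, 250, 244, 267 and 224 RPKM in FF HFD mice. These groups were far apart, and Cyp4a10 rose by 3.60 on the log2 scale (SE 0.35, limma adjusted p = 4.4e-06). Its relative Cyp4a14 rose by 5.62 (SE 0.51, adjusted p = 1.65e-06). Reads of the near-identical Cyp4a genes may be split or shared between them, so the single values are uncertain.

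On CD, LKO mice had higher levels than FF mice for 3 of the 38 PPARα targets, namely Cyp4a14 (4.43), Cyp4a10 (2.85) and Acot3 (2.17), the last of which was named after its value was seen. Cyp4a10 was at 128, 218, 86.7 and 156 RPKM in LKO CD mice, all above the FF CD range, with an adjusted p of 0.00127 in limma. Without LKO CD mouse 3 the number of targets called higher was 6. On HFD 3 targets were lower in LKO than in FF mice, namely Pex11a (-0.86, SE 0.17, adjusted p = 0.00747), Acot2 (-0.96, SE 0.25, adjusted p = 0.0392) and Aldh3a2 (-0.77). Pex11a, a factor of peroxisome division, was at 82.4, 126, 98.0, 105 and 107 RPKM in FF HFD mice and at 69.2, 54.5, 60.9, 51.2 and 47.7 RPKM in LKO HFD mice, with no overlap. The number called lower was 1 without FF HFD mouse 2 and 5 without FF CD mouse 3. Acot2, one of a family of near-identical genes, lost its call in 7 of the fits that left out 1 mouse, namely those without FF HFD mouse 2, 3, 4 or 5 or LKO HFD mouse 2, 4 or 5, and also with a pseudocount of 0.1 RPKM (adjusted p = 0.0685) and without a filter (adjusted p = 0.0779). The median of the 38 was 0.33 for LKO on CD and -0.29 for LKO on HFD, against 0.03 in both comparisons over all genes. Of all genes, 0.225% were called for LKO on CD and 2.07% for LKO on HFD.

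Targets of PPARγ in fatty liver were a list of 15 lipid droplet and lipid uptake genes, 14 of them tested. HFD in FF mice raised 10 and lowered 1 of the 14, with a median of 1.84, where 6.60% of all genes were called. The lower one was Fasn, fatty acid synthase (-1.09, SE 0.33, adjusted p = 0.0267), which the list of liver X receptor targets also holds and whose call was lost without FF CD mouse 1, FF CD mouse 2 or FF HFD mouse 1. Cidec, a lipid droplet protein, was at 0.479, 1.0, 0.633 and 0.764 RPKM in FF CD mice and at 10.1, 35.8, 47.5, 22.2 and 25.1 RPKM in FF HFD mice, and it rose by 3.93 on the log2 scale (SE 0.43, limma adjusted p = 9.94e-06). Cd36, a fatty acid transporter, was at 2.33 to 5.69 RPKM in FF CD and at 55.4 to 89.1 RPKM in FF HFD mice, and it rose by 3.76 (SE 0.37, adjusted p = 4.44e-06). On HFD, where 2.07% of all genes were called, the LKO mice had 5 of the 14 lower than the FF mice. These were Cidec (-2.18), Cd36 (-1.88), Mogat1 (-1.61), Plin4 (-1.37) and Fabp4 (-0.96), and the last 3 were named after their values were seen. The number was 3 without FF HFD mouse 2, 3 or 4 or LKO HFD mouse 2, 3 or 4. Cd36 in LKO HFD mice, at 37.1, 28.4, 11.6, 6.98 and 17.1 RPKM, lay below the whole FF HFD range, while Cidec in LKO HFD mouse 1, at 10.8 RPKM, was just above FF HFD mouse 1.

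Pparg itself was not called between LKO and FF mice on HFD, as given above. On CD 0 of the 14 targets were called between genotypes in limma or with voom, and 3 had an unadjusted p under 0.05. Of all genes, 0.225% were called by limma in that comparison. Cd36 was not among the called genes (1.42, SE 0.39, adjusted p = 0.176), although Cd36 was at 7.12 to 19.4 RPKM in LKO CD mice, above all FF CD mice. In LKO mice HFD raised 3 of the 14, where 1.27% of all genes were called. They were Fabp4 (1.08), Fitm2 (0.71) and G0s2 (1.22), named after their values were seen. The number was 0 without LKO CD mouse 1 or 3 or LKO HFD mouse 3, and 1 without LKO CD mouse 2 or 4, FF HFD mouse 2 or LKO HFD mouse 5. The HFD response was lower in LKO mice for Cd36 (-3.30, SE 0.53, adjusted p = 0.00186), Cidec (-2.95, SE 0.61, adjusted p = 0.0114), Plin4 (-1.99) and Mogat1 (-1.93). Of all genes, 2.44% were called for a difference in response.

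**Figure D3:**
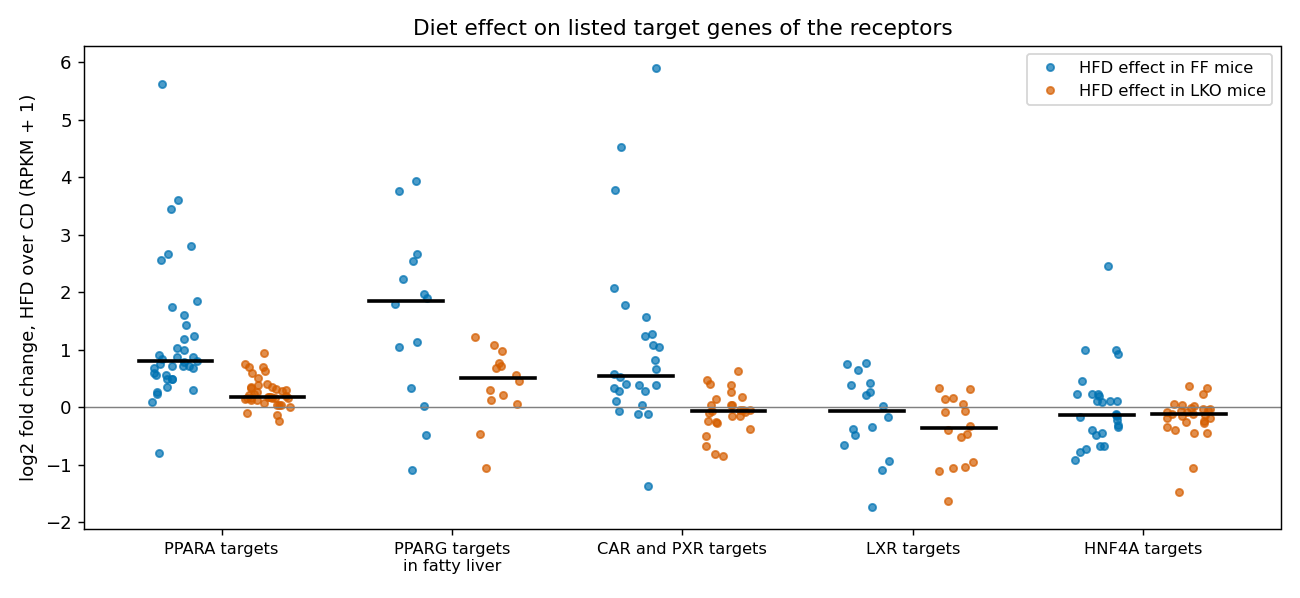
Log2 fold change of HFD over CD (RPKM + 1) for every tested gene of 5 lists of receptor targets, with FF mice in blue and LKO mice in orange, 1 point per gene and the list median as a black bar. The medians in FF and LKO mice were 0.80 and 0.18 for PPARα targets, 1.84 and 0.51 for PPARγ targets and 0.55 and -0.06 for CAR and PXR targets.

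The list of CAR and PXR targets held 29 drug-metabolising enzymes and transporters, 26 of them tested. HFD in FF mice raised 11 and lowered 1 of the 26, with a median of 0.55, where 6.60% of all genes were called. The lower one was Cyp2c54 (-1.37, SE 0.38, adjusted p = 0.0152, and 0.0520 with only the groups compared). In LKO mice HFD raised 1, Gadd45b, with a median of -0.06, where 1.27% of all genes were called. The count was 0 without any one of the LKO CD mice or without LKO HFD mouse 3, 4 or 5. Gadd45b, at a mean of 0.281 RPKM in LKO CD and 1.01 RPKM in LKO HFD mice, passed the filter on low values through the LKO HFD mice. No fold or test is therefore given for Gadd45b, and its call is no support for a change. Cyp2b9, a Cyp2b enzyme, was at 0 to 0.0228 RPKM in the FF CD mice, too few reads for a fold change, and at 30.4, 125, 95.6, 63.1 and 32.7 RPKM in the FF HFD mice. In the LKO HFD mice it was at 0.450, 1.48, 0.173, 0.273 and 0.109 RPKM, far below every FF HFD mouse. Cyp2b9 passed the filter on low values through the FF HFD mice, so no fold or test is given for it, and its place in the counts of this list is no support for them. Cyp2a4, a steroid hydroxylase, was at 0.0758 to 0.481 RPKM in FF CD mice, at 7.59, 59.7, 69, 20.6 and 23.6 RPKM in FF HFD mice and at 0.149 to 2.92 RPKM in LKO HFD mice. It rose by 4.52 with HFD in FF mice (SE 0.47, adjusted p = 6.07e-06) and was lower in LKO HFD than in FF HFD mice by -4.04 (SE 0.44, adjusted p = 3.92e-05).

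On HFD, where 2.07% of all genes were called, LKO mice had 5 of the 26 CAR and PXR targets lower than FF mice and 0 higher. Beside Cyp2b9 and Cyp2a4 these were Gsta1 (-1.67), Cyp2a5 (-1.28) and Abcb1a (-0.71), named after their values were seen. The number was 3 without FF HFD mouse 2 or 3 or LKO HFD mouse 3, and 8 without LKO HFD mouse 1. The HFD response was lower in LKO mice for 9 of the 26 and higher for 0, with a median of -0.87, where 2.44% of all genes were called. The 5 and the 9 both include Cyp2b9, which is no support for them. On CD 0 of the 26 were called between genotypes in limma or with voom, 7 had an unadjusted p under 0.05, and the median was 0.27. Of all genes, 0.225% were called by limma in that comparison. The 0 was not firm, since other settings called up to 3 higher in LKO mice and the fit without FF CD mouse 4 called 1. Cyp2a, Cyp2b, Cyp2c and Gsta genes have near-identical relatives, so the division of reads among them is uncertain.

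**Figure D4:**
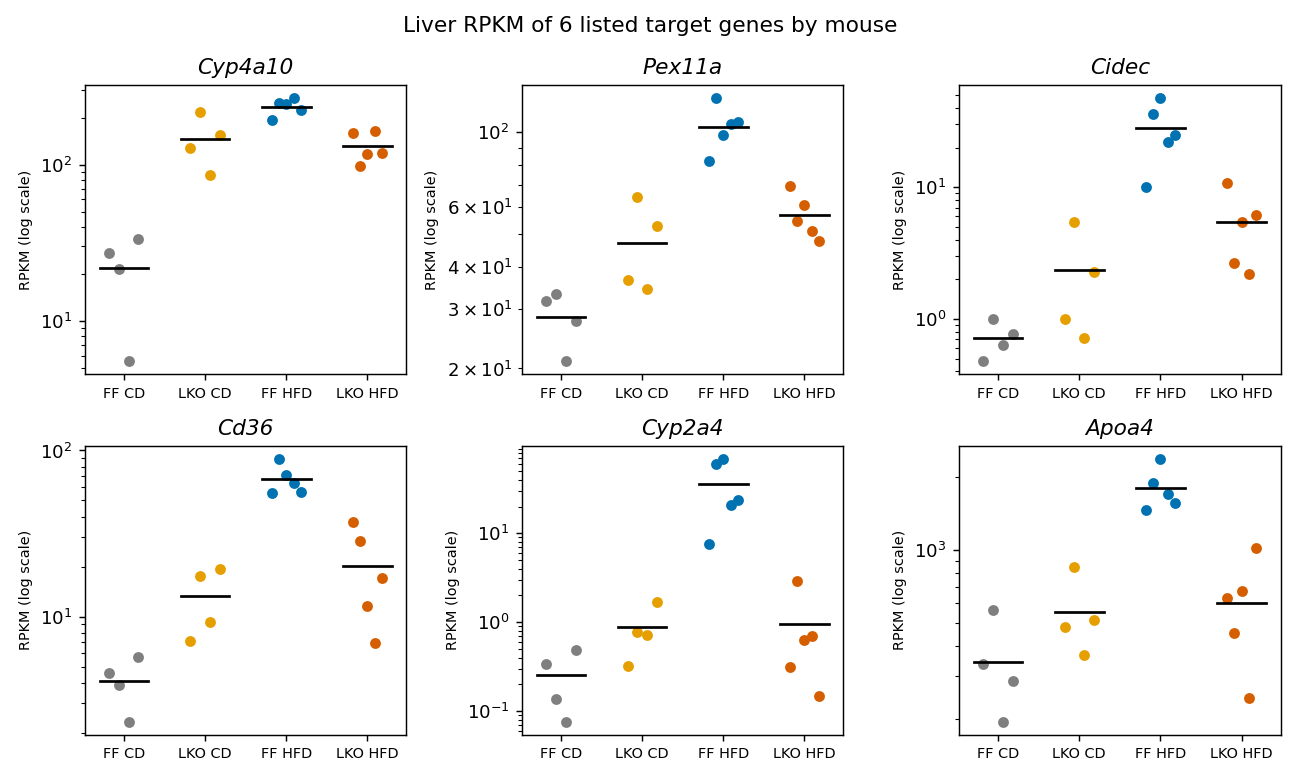
Level in RPKM on a log axis for 6 target genes of the receptors, Cyp4a10, Pex11a, Cidec, Cd36, Cyp2a4 and Apoa4, with 1 point per mouse in the 4 groups and the group mean as a line. In FF HFD mice Cyp2a4 was at 7.59 to 69 RPKM and in LKO HFD mice at 0.149 to 2.92 RPKM, and Cyp4a10 in LKO mice was at 86.7 to 218 RPKM on CD and 98.1 to 165 RPKM on HFD.

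The 16 targets of the liver X receptors went in both directions. HFD in FF mice raised Mylip (0.76, SE 0.16, adjusted p = 0.00289) and Smpdl3a (0.64, SE 0.10, adjusted p = 0.000191) and lowered Pnpla3 (-1.75, SE 0.42, adjusted p = 0.00642), Fasn, Srebf1 (-0.94) and Mlxipl (-0.67). Mylip degrades the LDL receptor, and Srebf1 and Mlxipl are the lipogenic transcription factors. The list median was -0.07, and 6.60% of all genes were called for HFD in FF mice. Pnpla3, a triglyceride lipase, was spread widely in FF CD mice at 11, 12.9, 2.52 and 2.21 RPKM and was at 0.636 to 1.90 RPKM in FF HFD mice. The number of liver X receptor targets called lower was 2 without FF CD mouse 1. In LKO mice HFD lowered 1 of 16, Pnpla3 (-1.63), and raised 0, where 1.27% of all genes were called. The number called was 0 without LKO CD mouse 1 or 3 or LKO HFD mouse 3, 4 or 5 and 3 without LKO HFD mouse 1. Between genotypes 0 of 16 were called on CD or on HFD in limma or with voom, with 4 and 9 at an unadjusted p under 0.05. Of all genes, 0.225% and 2.07% were called by limma on CD and on HFD. By adjusted p alone, 2 passed as higher and 1 as lower in LKO mice on HFD (4.20% of all genes passed), the lower one being Smpdl3a (-0.43, adjusted p = 0.0109). The HFD response was called higher in LKO mice for Mlxipl (0.81, adjusted p = 0.0373) and lower for Smpdl3a (-0.72, adjusted p = 0.00567), where 2.44% of all genes were called. The number called higher was 0 without FF CD mouse 1. On HFD the largest differences among the 16 were -0.90 for Scd1, stearoyl-CoA desaturase (adjusted p = 0.0741), and 0.74 for Cyp7a1, the rate-limiting enzyme of bile acid synthesis (adjusted p = 0.0846). Scd1 was called after rescaling to a common sum (-0.96, adjusted p = 0.0471) and after quantile normalization (-1.10, adjusted p = 0.0382), and also without FF HFD mouse 1 (-1.06, adjusted p = 0.0356) or LKO HFD mouse 1 (-1.07, adjusted p = 0.0290). The number of liver X receptor targets called between genotypes on HFD was 2 without either of these mice.

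The 28 targets of HNF4α, mostly apolipoproteins, clotting factors and enzymes, also split in the HFD effect in FF mice. There 4 were raised and 4 lowered, with a median of -0.13, where 6.60% of all genes were called. The raised genes were Apoa4 (2.45), Ces1g (1.0), Apoc2 (0.99) and Cyp8b1 (0.93), and the lowered ones were Apom (-0.91), Apoa1 (-0.72), F7 (-0.68) and F11 (-0.67). Apoa1, the main protein of HDL, missed the fold limit after quantile normalization (-0.50). Apoa4, an apolipoprotein of triglyceride-rich particles, was at 337, 561, 195 and 288 RPKM in FF CD mice, and at 1456, 1882, 2369, 1691 and 1552 RPKM in FF HFD mice, all of which were higher. Its level in LKO HFD mice was 634, 454, 672, 245 and 1011 RPKM, below all FF HFD mice, and lower by -1.69 on the log2 scale (SE 0.32, limma adjusted p = 0.00616). G6pc, the last enzyme of glucose production, was at 141, 133, 149, 201 and 207 RPKM in FF HFD mice and at 63.2, 45.9, 48.9, 49.1 and 37.1 RPKM in LKO HFD mice, with no overlap (-1.74, SE 0.15, adjusted p = 3.06e-06). It was also the 1 gene of this list lowered by HFD in LKO mice (-1.48, adjusted p = 0.000374), where 1.27% of all genes were called. Apoc2 was lower (-0.84) and Apoa1 higher (0.64, adjusted p = 0.0169) in LKO than in FF mice on HFD, and the latter call was lost without FF HFD mouse 2 or LKO HFD mouse 2, without a filter (adjusted p = 0.10), with only the groups compared (adjusted p = 0.0549) and after rescaling to a common sum, where it fell under the fold limit (0.58). On CD 0 of the 28 were called between genotypes in limma or with voom, with 5 at an unadjusted p under 0.05.

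Among 40 other nuclear receptors, 26 were tested, and 1 of the 26 was called higher for HFD in FF mice, a share under the 6.60% of all genes called. It was Rxrg, a second partner gene of the family (0.74, SE 0.15, adjusted p = 0.00254), at 0.904 ± 0.183 RPKM in FF CD and 2.20 ± 0.566 RPKM in FF HFD mice. In each of the other comparisons 0 of the 26 were called in limma or with voom, and between LKO and FF mice on HFD 7 of them had an unadjusted p under 0.05. On HFD, Nr1d1 (REV-ERBα) differed between LKO and FF mice by 0.61 (adjusted p = 0.0576). Nr1d1 was called after quantile normalization (0.60, adjusted p = 0.0430), with the replicate number as a block (adjusted p = 0.0314) and without FF HFD mouse 1 (0.75, adjusted p = 0.0109). Of 24 coregulators, 22 were tested, and 1 was called, likewise a share under that of all genes for HFD in FF mice. It was Lpin1, a coactivator and phosphatidate phosphatase, which fell by 0.88 with HFD in FF mice (SE 0.29, adjusted p = 0.0377) and by 1.24 in LKO mice. The call of Lpin1 in FF mice was lost in 7 of the fits that left out 1 mouse, namely those without any one of the FF CD mice or without FF HFD mouse 1, 3 or 5, and that in LKO mice without LKO CD mouse 1 or 3 or LKO HFD mouse 3 or 4. In FF mice it was also lost without a filter (adjusted p = 0.0726) and with only the groups compared (adjusted p = 0.0815).

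The genes whose levels followed each receptor most closely were listed by Pearson correlation of log2(RPKM + 1) over the 18 mice, which share libraries and group differences, so the correlations are descriptions. For Pparg they were Tenm3 (r = 0.96), Pde4d (0.93) and Slc16a7 (0.92), and these stayed at 0.92, 0.87 and 0.80 when group means were subtracted. For Ppara they were Slc25a42, Pnpla2 and 1600012H06Rik, each at 0.93 and at 0.81 to 0.85 within groups. Nr1i2 was followed by Mfsd2a (0.92) and Lpin2 (0.89), and Nr1i3 by its overlapping neighbour Tomm40l (0.90), Adcy6 (0.89) and Rab43 (0.88). Rxra was followed by Sympk (0.94), Sbf1 (0.90) and Ppp6r1 (0.89), of which Ppp6r1 encodes another regulatory subunit of protein phosphatase 6. The genes most like Esr1 were Osgep (0.85), Ppib (0.83) and Nudt21 (0.83), and those most like Nr1h3 were Elof1 (0.94), Aven (0.93) and Pex2 (0.91). For Hnf4a they were Ppp2r5d (0.90), Fam149a (0.79) and Akap13 (0.78), and for Ppard Slc25a23 (0.75), Hnf4a (0.72) and Enpp3 (0.70). Among the receptors themselves the highest correlations over the 18 mice were those of Ppara with Nr1i3 (0.80, and 0.57 within groups), Ppard with Hnf4a (0.72 and 0.67) and Pparg with Nr1i2 (0.68 and 0.31). The lowest over the 18 mice was that of Pparg with Hnf4a (-0.47 and -0.35). Within groups the highest was that of Nr1h3 with Rxra (0.69, and 0.62 over the 18 mice) and the lowest that of Hnf4a with Esr1 (-0.56, and -0.29 over the 18 mice).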

How the data were processed

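Liver RNA of 18 mice was sequenced. The authors deposited RPKM values for each mouse, and their processing notes name HISAT2 2.0.4, Partek and mm10. The annotation, the counting rule and the use of strand are not given in the sources used here, and the labels name a small RNA kit beside a standard RNA-seq protocol although the values cover mRNAs. RPKM were used as deposited, as log2(RPKM + 1). Genes with a mean of at least 0.5 RPKM were fitted in limma 3.58.1 (R 4.3.3, empirical Bayes with a mean-variance trend), with 1 term for each of the 4 groups. Contrasts were the HFD effect in each genotype, the LKO effect under each diet and their interaction. Calls followed the study's limits of 1.5-fold and an adjusted p of 0.05 (Benjamini-Hochberg over all genes tested). For single receptors, two-sided exact permutation tests over every division of the mice compared were run in Python 3.11.15. The labels do not say whether mice shared litters or cages, so p-values measure the spread between these animals.

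Reads per mouse were recovered from the steps between low RPKM values, as whole reads for 8912 of the tested genes (80.4%), and were estimated for 2111 more from gene lengths of GENCODE M21. These reads were used for depth and for limma voom as an alternative. Gene coordinates are from GENCODE M21 (GRCm38), promoters from RefSeq (GRCm38.p6), and all 9 receptors matched both by symbol.

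The receptors, the gene lists and the tests were chosen with earlier results of these data known. Named list genes were, for the HFD effect in FF mice and the LKO effect under HFD, up to 2 called higher and 2 called lower with the largest change and a mean of at least 1 RPKM, or the 2 with the largest change where none was called. Other list genes are named only where a list had few calls. Likeness used the 3 genes with the highest r. A few genes that these rules name are not reported here. Alternatives were other pseudocounts, filters, scalings, the replicate block, fits of the compared groups alone, voom, and leaving out each mouse. Those for list counts and list genes were added after seeing the data. Target lists come from general knowledge of the receptors and hold genes that other factors also regulate.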

Additional observations from a re-analysis of the deposited data

Results flagged for a closer look

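In 3 of 36 receptor and group combinations a single mouse stood apart from the rest of its group by Dixon's test, where chance gives about 1 in 20 groups. Hnf4a was at 135 RPKM in LKO HFD mouse 4, with the next mouse at 94.3 RPKM. Rxra was at 71.2 RPKM in FF CD mouse 1, with the next mouse at 54.7 RPKM. Esr1 was at 0.965 RPKM in FF HFD mouse 3, with the next mouse at 1.43 RPKM. None of these 3 receptors was called in any comparison.

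The HFD effect differed between genotypes for Pparg by -1.72 and for Nr1i2 by -0.67 on the log2 scale (LKO response minus FF response, tested as the interaction in limma).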

How the results depend on the processing

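Over the alternatives other than leaving out mice, 342 receptor values kept their direction and their call under both limits together, 7 changed sign and 2 became called. The adjusted p alone crossed 0.05 more often, as given for Rxra, Esr1 and Nr1i2. With a pseudocount of 0.1 RPKM, genes called rose to 1254 for HFD in FF mice and 272 for HFD in LKO mice, and 1 receptor, Pparg, was called for LKO on CD. Without a filter, calls were 47 for HFD in LKO mice, 12 for LKO on CD, 152 for LKO on HFD and 169 for the interaction. Fitting only the groups compared gave 40 for HFD in LKO mice, and voom gave 1284 for HFD in FF and 284 for HFD in LKO mice. By adjusted p alone the numbers were 2287 for HFD in FF mice (4 receptors), 449 for HFD in LKO mice and 466 for LKO on HFD (2 receptors).

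Scaling moved the balance of directions. Rescaling RPKM to a common sum gave 411 calls for the interaction (112 higher and 299 lower), 16 higher and 15 lower for LKO on CD, and 83 higher and 167 lower for LKO on HFD. It turned the sign of Nr1h3 for HFD in FF mice (0.0607) and, for LKO on HFD, of Ppard (-0.0030), Nr1h3 (-0.0038) and Hnf4a (-0.0038). Quantile normalization gave 87 calls for HFD in LKO mice (48 higher and 39 lower), 423 higher and 224 lower for HFD in FF mice, and 13 in each direction for LKO on CD. It turned the sign of Rxra for HFD in FF mice (-0.0504) and of Ppard (-0.0969) and Esr1 (-0.0349) for HFD in LKO mice. The cause was not tested.

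When each mouse was left out in turn, genes called ranged from 17 to 237 for HFD in LKO mice, 11 to 45 for LKO on CD, 132 to 318 for LKO on HFD and 156 to 392 for the interaction. Receptors called ranged from 0 to 1 for LKO on CD and 1 to 3 for the interaction. Pparg (1.29 to 1.57) and Nr1i3 (0.83 to 1.08) stayed called for HFD in FF mice. Signs turned only for values near 0, for HFD in FF mice Nr1h3 (-0.0918 to 0.0664) and Rxra (-0.0612 to 0.111), for HFD in LKO mice Hnf4a (-0.107 to 0.0534) and Ppard (-0.0223 to 0.0614), for LKO on CD Nr1h3 (-0.11 to 0.0236) and for LKO on HFD Hnf4a (-0.0652 to 0.121), Nr1h3 (-0.0413 to 0.115) and Ppard (-0.0261 to 0.0649).

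With the replicate number as a block, which the labels do not say marks a shared litter or day, calls were 789, 166, 26, 223 and 294 for HFD in FF mice, HFD in LKO mice, LKO on CD, LKO on HFD and the interaction, and no receptor call changed (interaction adjusted p = 0.0240 for Pparg and 0.0280 for Nr1i2 in limma). The adjusted p of Nr1i2 for LKO on HFD went to 0.0567 under the block. Among list genes the block ended the call of Lpin1 for HFD in FF mice (-0.90, adjusted p = 0.0601) and made Nr1d1 called for LKO on HFD (0.61, adjusted p = 0.0314). Deviations of same-numbered mice correlated at -0.17 to 0.33 over 25 pairs (median 0.05), with 10 over 0.1. Those of differently numbered mice correlated at -0.35 to 0.39 over 96 pairs (median -0.01), with 26 over 0.1. These overlapping ranges cannot decide whether the numbers pair the mice. Depth limits Ppard and Pparg most, at as few as 82 and 88 reads in a mouse. The number of mice, the overlap of Nr1i3 with Tomm40l and the mixture of cell types limit the values given for the receptors.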
